A study of Homo sapiens with 6 samples.

Results

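The mitochondrial ribosomal protein genes are the nuclear genes with MRPL and MRPS symbols. They were taken as every row of the count table whose symbol begins with MRPL or MRPS followed by a number, which gave 78 of the 20030 genes listed. Of these, 51 encode proteins of the large subunit, 26 encode proteins of the small subunit, and 1, MRPS36, encodes a protein of neither. Subunits were assigned by the particle each protein is built into, so that MRPS30 and MRPS18A count as large subunit members despite their symbols.

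Mitochondria hold their own ribosome, which translates the few proteins encoded by the mitochondrial genome, all of them core subunits of the respiratory chain and ATP synthase. Its proteins are encoded in the nucleus, made in the cytosol and imported. Some descend from bacterial ribosomal proteins, and others are found in mitochondrial ribosomes but not in bacterial ones. IGF2BP1 is an RNA-binding protein that reads m6A marks and is known to stabilise its target mRNAs.

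The libraries are labelled H929, the name of the myeloma line NCI-H929, and were made after knockdown of IGF2BP1 (IGF2BP1-KD) or from negative control cells (IGF2BP1-NC), in 3 libraries each of mRNA from total RNA. The lines were made by lentiviral transduction, and the knockdown vectors carried short hairpin RNAs under a U6 promoter with puromycin selection. The hairpin used for these libraries and the separateness of the cultures are not given in the sources used here, so p-values measure the spread between these samples, which may be technical. Total counts were 16885449 to 18112179 per library. IGF2BP1 itself had an FPKM (fragments scaled by gene length and by library size) of 48.1, 43.7 and 49.1 in IGF2BP1-NC and 13.5, 12.9 and 12.8 in IGF2BP1-KD, a log2 fold change of -1.85 (SE 0.07).

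The cell type label was checked against marker genes. Of 13 plasma cell markers, 3 exceeded 1 CPM (counts scaled to a common library size) in every library. TNFRSF17, IRF4, CD38, POU2AF1, FCRL5, CD27 and TNFRSF13B had at most 3 counts in each library. Summed levels of the 13 were 78.3 to 160 CPM in IGF2BP1-NC and 81.1 to 86.6 CPM in IGF2BP1-KD. The highest of the 5 tested plasma cell markers had a mean of 46.6 FPKM. Another plasma cell marker, SLAMF7, was called higher in IGF2BP1-KD, with 4, 5 and 4 counts in IGF2BP1-NC and 52, 42 and 181 in IGF2BP1-KD (log2 fold change 4.37, SE 0.80, adjusted p = 0.0088), a call that was lost without IGF2BP1-NC replicate 1 or 3. All 13 erythroid markers exceeded 1 CPM in every library, with summed levels of 8610 to 10500 CPM in IGF2BP1-NC and 9500 to 10400 CPM in IGF2BP1-KD, and 6 of them (46.2%) were lower in IGF2BP1-KD, against 14.5% of all tested genes. Of 10 granulocyte and monocyte markers 2 exceeded 1 CPM in every library, with sums of 31.2 to 41.2 CPM in IGF2BP1-NC and 37.7 to 62.2 CPM in IGF2BP1-KD. These marker levels go against the myeloma label in both groups, so the values below describe the cells in libraries labelled H929, whose identity was not settled here. The part of these markers in the results below was not tested.

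The members were abundant. Over all libraries the 77 tested members had a median level of 45.5 FPKM, against 8.22 FPKM for all tested genes, and 76 of them lay above that median. MRPL18 (136 FPKM), MRPL41 (134 FPKM) and MRPL37 (128 FPKM) had the highest levels. MRPL19 (7.72 FPKM), MRPL43 (8.37 FPKM) and MRPS11 (8.84 FPKM) had the lowest of the tested members, 17.6 times apart from end to end. The large subunit had a median of 46.2 FPKM and the small subunit a median of 45.1 FPKM.

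**Figure D1:**
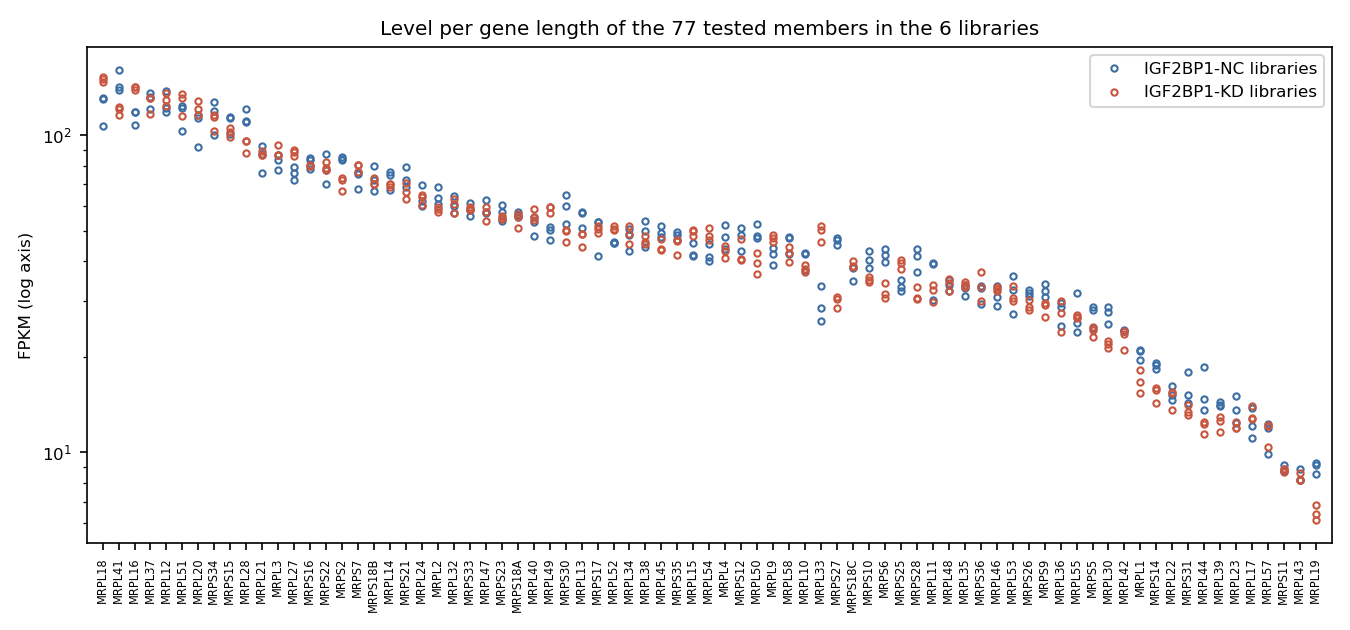
FPKM (log axis) of the 77 tested members, ordered by their mean, with a point for each of the 6 libraries. Levels run from 7.72 FPKM for MRPL19 to 136 FPKM for MRPL18, and at most positions the points of both groups lie close together.

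MRPS24 was the member not tested. It had 1, 1 and 5 counts in IGF2BP1-NC and 0, 1 and 1 in IGF2BP1-KD, at or near the 3 counts that a count of 0 allows, and no fold is given. It shares 606 exon bases on the same strand with URGCP-MRPS24, a readthrough gene with 0 counts in every library, while URGCP had 494 to 660 counts. How reads on such shared exons were counted is not given in the sources used here.

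In IGF2BP1-KD, 5 members were higher and 14 were lower than in IGF2BP1-NC (edgeR's quasi-likelihood test, Benjamini-Hochberg adjusted p under 0.05 over all 11994 tested genes). These are 6.49% and 18.2% of the tested members. Among all tested genes 13.7% were called higher and 14.5% lower. Fewer cells of a type and less RNA per cell cannot be told apart in such bulk samples. The changes were mostly small, and the quartiles of the members' log2 fold changes were -0.19 and 0.04. The median log2 fold change of the members was -0.06 and that of all tested genes was -0.01 (to 2 decimals). Of the members 64.9% lay below 0, against 50.7% of all tested genes. In the lists described below, this share was 88.0% for nuclear oxidative phosphorylation subunits and 73.1% for mitochondrial ribosome assembly factors. It was 62.5% for mitochondrial translation factors and 34.5% for cytosolic ribosomal protein genes. In 33 members the libraries of the groups did not overlap (42.9%), near the 45.6% of all tested genes. The member counts moved with single libraries in both directions. Without IGF2BP1-NC replicate 1 there were 5 higher and 21 lower members, against 1929 and 2062 of all tested genes. Without IGF2BP1-NC replicate 2 there were 4 and 7, against 1158 and 1242. Without IGF2BP1-KD replicate 1 there were 2 and 9, against 1189 and 1207. Without IGF2BP1-KD replicate 2 there were 2 and 12, against 1144 and 1146. Without IGF2BP1-KD replicate 3 there were 4 and 9, against 1220 and 1244. With all libraries 1648 genes were higher and 1738 lower. Without IGF2BP1-NC replicate 2 the lower members fell more in proportion than the lower genes did. Without IGF2BP1-KD replicate 2 they fell less.

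**Figure D2:**
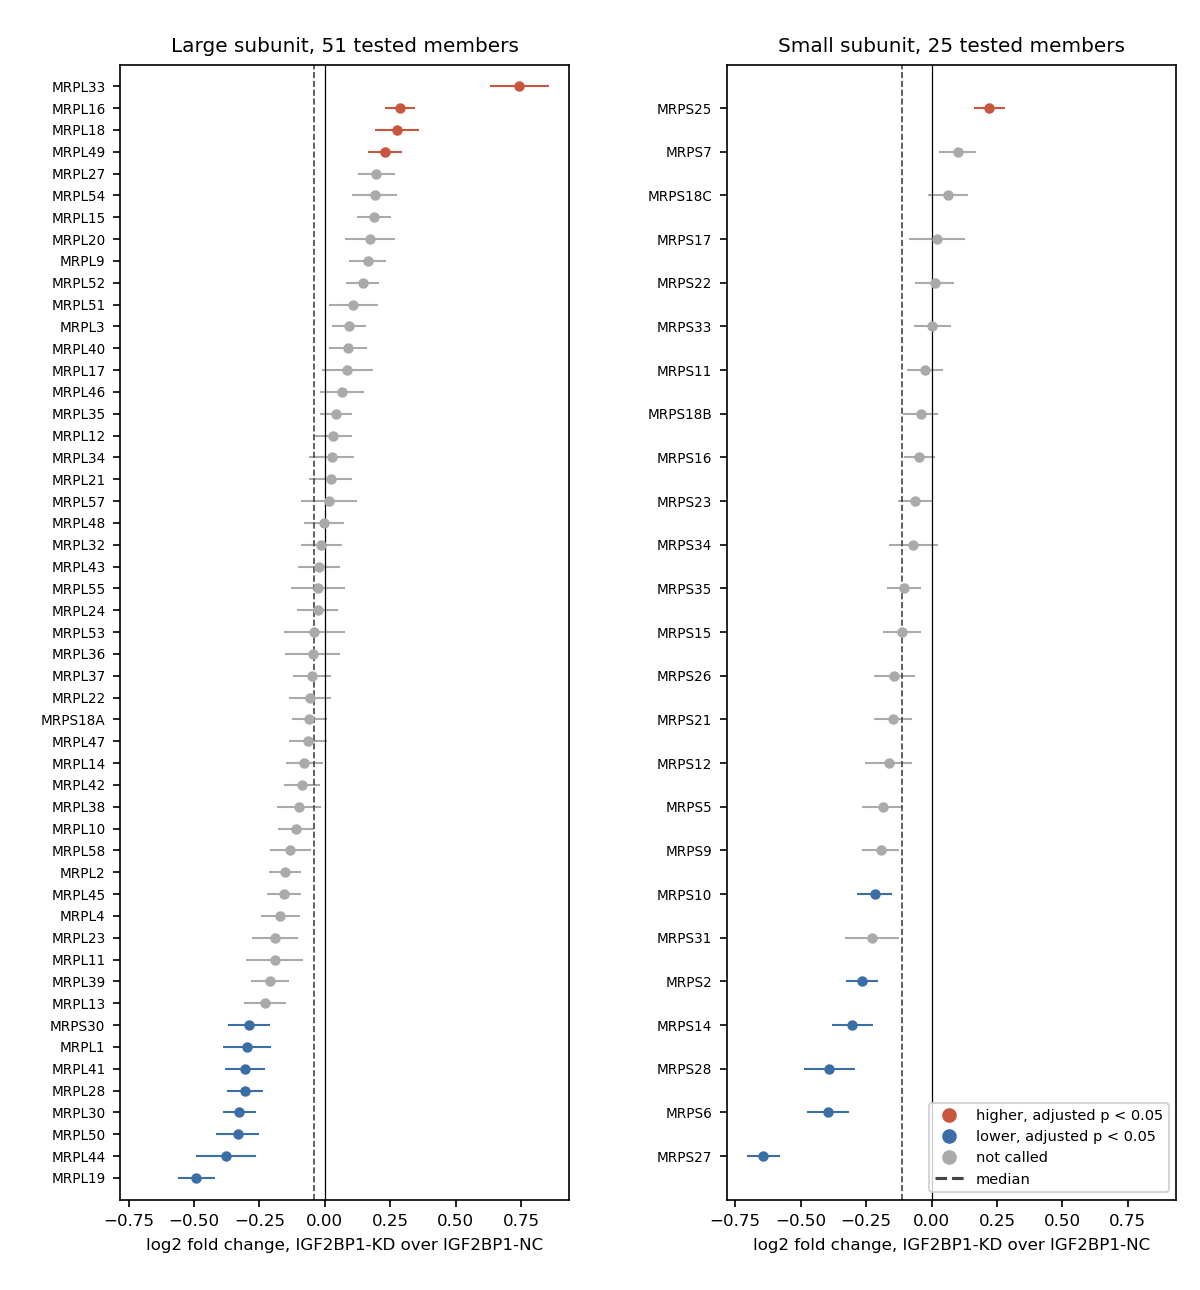
Fitted log2 fold change (IGF2BP1-KD over IGF2BP1-NC) with its standard error for the 51 large and 25 small subunit members tested, coloured by call, with the median dashed. Of the large subunit 4 members are higher and 8 lower, and of the small subunit 1 is higher and 6 lower.

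The rises were led by MRPL33, a small protein of the large subunit with a bacterial counterpart. Its FPKM was 28.5, 33.4 and 25.9 in IGF2BP1-NC and 50.3, 51.8 and 46.1 in IGF2BP1-KD. All IGF2BP1-KD libraries lay above all IGF2BP1-NC libraries, with a log2 fold change of 0.74 (SE 0.11, adjusted p = 0.00091). The annotation places MRPL33 (NCBI gene 9553) on the plus strand of chromosome 2, bases 27771717 to 27988087 (GRCh38), where it shares 21.1% of its exon bases with BABAM2 on the same strand. BABAM2 had a log2 fold change of 0.11 (SE 0.08, adjusted p = 0.355).

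MRPL16, which lies near the catalytic centre of the large subunit, had 118, 118 and 108 FPKM in IGF2BP1-NC and 139, 142 and 142 in IGF2BP1-KD. The groups did not overlap, and the log2 fold change was 0.29 (SE 0.06, adjusted p = 0.0041). MRPL18, of the central protuberance, had 107, 130 and 131 FPKM in IGF2BP1-NC and 147, 150 and 153 in IGF2BP1-KD. Its first control library was the lowest, and the rise of 0.28 on the log2 scale (SE 0.08, adjusted p = 0.0298) was lost without any 1 of the IGF2BP1-KD libraries. MRPL49, a mitochondria-specific large subunit protein, had 46.8, 50.2 and 51.5 FPKM against 59.5, 59.4 and 56.8, a log2 fold change of 0.23 (SE 0.07, adjusted p = 0.0223), which was lost without IGF2BP1-KD replicate 1 or 2.

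MRPS25 was the small subunit member that was higher. Its FPKM was 33.2, 32.2 and 34.9 in IGF2BP1-NC and 39.4, 40.4 and 37.9 in IGF2BP1-KD. The groups stood apart, with a log2 fold change of 0.22 (SE 0.06, adjusted p = 0.0185), and the call was lost without IGF2BP1-NC replicate 2, IGF2BP1-KD replicate 1 or IGF2BP1-KD replicate 2. It shares 39.1% of its exon bases with NR2C2 on the opposite strand and 11.3% with another gene on the same strand.

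Among all members MRPS27, a mitochondria-specific small subunit protein of the pentatricopeptide repeat family, had the largest fall. Its FPKM was 46.6, 45.1 and 47.5 in IGF2BP1-NC and 30.9, 30.4 and 28.5 in IGF2BP1-KD. The lowest control library lay well above the highest knockdown library, and the level dropped by 35.9% (log2 fold change -0.64, SE 0.06, adjusted p = 7.1e-05). The gene (NCBI gene 23107) occupies bases 72214953 to 72321717 of chromosome 5, minus strand.

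The other small subunit falls were in proteins with bacterial counterparts. MRPS6 had 39.8, 41.8 and 43.8 FPKM in IGF2BP1-NC and 31.6, 30.6 and 34.1 in IGF2BP1-KD, a log2 fold change of -0.40 (SE 0.08, adjusted p = 0.0049). MRPS28 had 37.0, 43.8 and 41.7 FPKM against 30.7, 33.3 and 30.4, a log2 fold change of -0.39 (SE 0.10, adjusted p = 0.0124). MRPS6 shares 6.9% and MRPS28 35.8% of their exon bases with another gene on the same strand. The call of MRPS28 was lost without IGF2BP1-NC replicate 2 or IGF2BP1-KD replicate 1. MRPS14, of the head of the small subunit, had 18.9, 18.3 and 19.2 FPKM against 15.7, 16.0 and 14.3, a log2 fold change of -0.30 (SE 0.08, adjusted p = 0.0145), lost without IGF2BP1-KD replicate 3. The remaining falls, named after their values were seen, were MRPS2 (log2 fold change -0.27, SE 0.06, adjusted p = 0.0090) and MRPS10 (log2 fold change -0.22, SE 0.07, adjusted p = 0.0291), the latter called in 2 of the 6 fits that left out a library.

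In the large subunit the largest fall was in MRPL19, the counterpart of bacterial L19. Its FPKM was 9.14, 8.58 and 9.25 in IGF2BP1-NC and 6.11, 6.84 and 6.39 in IGF2BP1-KD, without overlap, and the log2 fold change was -0.49 (SE 0.07, adjusted p = 0.00067). MRPL30 had 28.8, 27.8 and 25.4 FPKM against 21.4, 22.5 and 22.0, a log2 fold change of -0.33 (SE 0.06, adjusted p = 0.0036). MRPL28 had 110, 121 and 111 FPKM against 95.6, 96.1 and 87.8, a log2 fold change of -0.30 (SE 0.07, adjusted p = 0.0075). All 3 descend from bacterial proteins and were lower in all 6 fits that left out a library. MRPL19 shares 19.5%, MRPL30 11.8% and MRPL28 7.3% of their exon bases with a gene on the same strand. MRPL30 also shares 8.0% with another such gene.

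The other large subunit falls each depended on a library. MRPL50, MRPL41, MRPS30 and MRPL44 are mitochondria-specific, and MRPL1 is bacterial-type. In the large subunit each class held 4 lower members, 19.0% of the mitochondria-specific and 13.3% of the bacterial-type ones, against 14.5% of all tested genes. MRPL50 had 47.4, 52.6 and 48.2 FPKM in IGF2BP1-NC and 39.4, 42.5 and 36.6 in IGF2BP1-KD (log2 fold change -0.33, SE 0.08, adjusted p = 0.0121), and MRPL41 had 139, 161 and 142 FPKM against 121, 123 and 116 (log2 fold change -0.30, SE 0.08, adjusted p = 0.0128). Both calls were lost without IGF2BP1-NC replicate 2. MRPS30 had 64.7, 60.0 and 52.3 FPKM against 49.7, 50.1 and 45.9 (log2 fold change -0.29, SE 0.08, adjusted p = 0.0198), and its call was lost without IGF2BP1-NC replicate 2, IGF2BP1-KD replicate 1 or IGF2BP1-KD replicate 3. MRPL44, which has a ribonuclease III-like fold, had 18.6, 14.7 and 13.6 FPKM against 12.5, 12.3 and 11.4, with the first control library highest, and its log2 fold change of -0.38 (SE 0.11, adjusted p = 0.0279) was called in 1 of the 6 fits that left out a library. MRPL1, a bacterial-type protein of the stalk beside the tRNA exit site, had 20.9, 19.5 and 21.1 FPKM against 15.4, 18.2 and 16.7, a log2 fold change of -0.30 (SE 0.09, adjusted p = 0.0311), called in 2 of those fits.

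**Figure D3:**
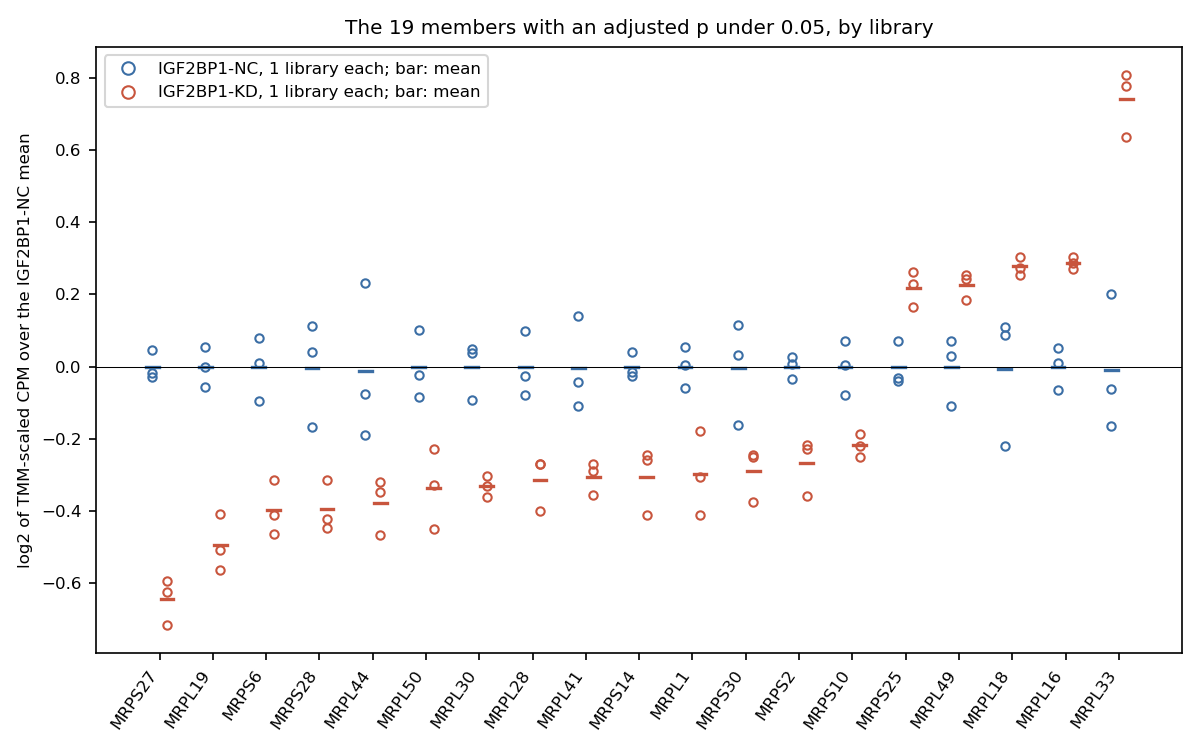
log2 of TMM-scaled CPM relative to the IGF2BP1-NC mean for the 19 called members, with a circle per library and a bar at each group's mean. In each of the 19 the groups do not overlap, against 45.6% of all tested genes. The 19 were called from these same libraries, so the lack of overlap is not further support. The falls of MRPS27 and MRPL19 and the rise of MRPL33 lie farthest from 0.

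Members just outside the threshold were MRPL13 (log2 fold change -0.23, adjusted p = 0.0501), MRPL15 (0.19, adjusted p = 0.0531), MRPL39 (-0.21, adjusted p = 0.0537) and MRPL27 (0.20, adjusted p = 0.0546). MRPL12, of the stalk that recruits translation factors, had 118, 138 and 122 FPKM in IGF2BP1-NC and 136, 129 and 124 in IGF2BP1-KD, with overlap and a log2 fold change of 0.03 (SE 0.08, adjusted p = 0.798). MRPL58, a peptidyl-tRNA hydrolase built into the large subunit, had a log2 fold change of -0.13 (SE 0.08, adjusted p = 0.222). MRPS18A had -0.06 (SE 0.07, adjusted p = 0.535). MRPS36, known as a component of the 2-oxoglutarate dehydrogenase complex, had 0.05 (SE 0.10, adjusted p = 0.715).

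Small subunit members tended lower than large subunit members. The median log2 fold change was -0.11 over 25 small and -0.04 over 51 large subunit members, with 19 and 31 members below 0. Classes follow the unified protein names, where u or b marks bacterial-type and m mitochondria-specific proteins. MRPS18A (mL66) and MRPS18B (mS40) were thus classed as mitochondria-specific. Of 15 tested bacterial-type small subunit members, 0 were called higher and 5 (33.3%) lower by edgeR, against 13.7% and 14.5% of all tested genes. The median of these members was -0.16. Their higher count was also 0 at an unadjusted p under 0.05 and with DESeq2, limma-voom and limma on FPKM. These fits used the same libraries and are not independent of each other. Of the 10 mitochondria-specific small subunit members 1 was higher and 1 lower. The 30 bacterial-type large subunit members held 3 higher and 4 lower, and the 21 mitochondria-specific ones 1 and 4. These are descriptions, and no test of 1 subunit against the other was run over genes. Across the 76 subunit members, which share libraries and are not independent replicates, Spearman's rho between log2 mean FPKM and the log2 fold change was 0.30, and that between log2 gene length and the log2 fold change was -0.22. Gene length had a rho of 0.31 with the difference of IGF2BP1-NC replicate 1 from the other control libraries, a value of larger size within the control group.

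Summed over members, the small subunit level was 2096, 2229 and 2167 CPM (TMM-scaled) in IGF2BP1-NC and 2027, 2045 and 1966 CPM in IGF2BP1-KD. All knockdown libraries lay below all control libraries, with means of 2164 ± 66.7 and 2013 ± 41.2 CPM (SD, n = 3), a difference of -6.98%. The large subunit level was 3720, 4143 and 3989 CPM in IGF2BP1-NC and 3915, 3938 and 3778 CPM in IGF2BP1-KD. These overlapped, with means of 3951 ± 214 and 3877 ± 86.3 CPM, a difference of -1.86% that turned to 0.903% with summed FPKM, 0.588% without IGF2BP1-NC replicate 2 and -4.65% without IGF2BP1-NC replicate 1.

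The ratio of the small to the large subunit sum does not depend on the scaling of libraries, but it does on the measure summed. In CPM it was 0.563, 0.538 and 0.543 in IGF2BP1-NC and 0.518, 0.519 and 0.520 in IGF2BP1-KD, a difference of -5.29% between the means with no overlap. Without MRPS27, an alternative chosen after its values were seen, the ratio was 0.528, 0.507 and 0.509 against 0.495, 0.498 and 0.499, still apart, with a difference of -3.37%. Without IGF2BP1-NC replicate 1 the differences were -3.96% with MRPS27 and -2.08% without it. That library had the lowest of the 3 control values in 72.5% of the large and 52.0% of the small subunit members, against 38.5% of all tested genes. With summed FPKM and all libraries, the ratio had means of 0.484 in IGF2BP1-NC and 0.448 in IGF2BP1-KD, a difference of -7.36% with no overlap.

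**Figure D4:**
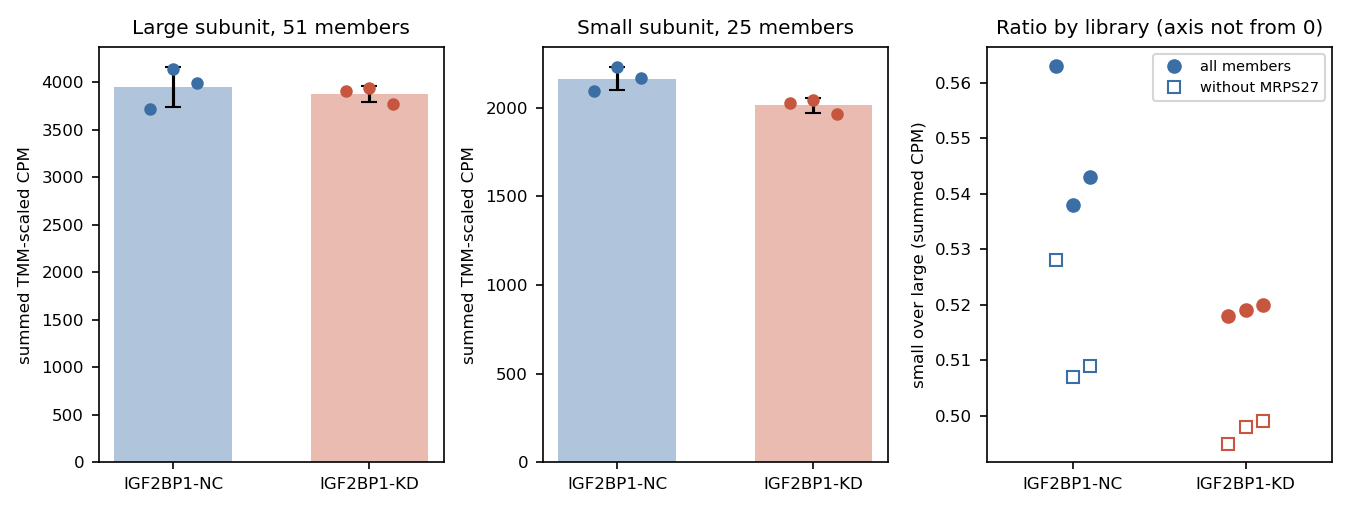
Summed TMM-scaled CPM of the large and the small subunit members (bars are means with SD, n = 3, and points are libraries) and, on an axis that does not start at 0, their ratio with and without MRPS27. The large subunit sums overlap between the groups, while the small subunit sums and both ratios are lower in every IGF2BP1-KD library.

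Promoter sequence was examined because the rule did not use it and because NRF1, GABPA (an ETS family factor) and YY1 are known regulators of nuclear genes for mitochondrial proteins. RefSeq windows of 250 bases before to 50 bases after the start were held for 70 of the 78 members, in 86 windows (GRCh38.p14). Both strands were searched for GCGCANGCG (NRF1), CCGGAAG (ETS) and AANATGGC (YY1), which do not contain each other. The windows below are all those with a match in called members, and capitals mark the match. ETS letters were in 3 higher (MRPL33, MRPL16 and MRPL18) and 3 lower members, YY1 letters in 1 higher (MRPL49) and 6 lower members, and NRF1 letters in 2 lower members.

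MRPL33, ETS, chr2:27771700-27771729, plus strand: cgggccgtgccCCGGAAGcagttgttgttg
MRPL16, ETS on the other strand, chr11:59810766-59810795, minus strand: agtgaacacaaCTTCCGGccccactgagcg
MRPL18, ETS on the other strand, chr6:159790430-159790459, plus strand: gggacttgctaCTTCCGGgtcggtggcgtc
MRPL28, ETS on the other strand, chr16:370513-370542, minus strand: cggcagatcggCTTCCGGttccggtgggct
MRPL30, ETS on the other strand, chr2:99181028-99181057, plus strand: ggtctgctgcgCTTCCGGgaagtggtcatg
MRPS10, ETS, chr6:42217865-42217894, minus strand: ccgctgtaaccCCGGAAGcaatcctgagag
MRPL30, NRF1 on the other strand, chr2:99181059-99181088, plus strand: gatacccaggCGCCTGCGCtctctttctag
MRPL44, NRF1, chr2:223957259-223957288, plus strand: gagagaactaGCGCAAGCGtagcctcaagg
MRPL49, YY1, chr11:65122333-65122362, plus strand: cgtagcaggtaAAGATGGCagctaccatgt
MRPS27, YY1, chr5:72320206-72320235, minus strand: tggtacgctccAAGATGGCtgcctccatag
MRPL50, YY1, chr9:101398577-101398606, minus strand: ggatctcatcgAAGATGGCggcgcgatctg
MRPS14, YY1, chr1:175023393-175023422, minus strand: ttgtagcggacAACATGGCggccttcatgc
MRPL1, YY1, chr4:77862835-77862864, plus strand: ccggagtgcccAACATGGCggcggccgtaa
MRPS30, YY1, chr5:44808949-44808978, plus strand: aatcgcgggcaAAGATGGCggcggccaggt
MRPS10, YY1, chr6:42217834-42217863, minus strand: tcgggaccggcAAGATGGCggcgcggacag

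The YY1 letters were in 32.6% of the members' windows, against 9.55% of the windows of tested genes and 6.58% of all windows. The ETS letters were in 38.4%, against 17.4% and 10.3%, and the NRF1 letters in 17.4%, against 13.0% and 7.52%. Matches to YY1 lay at a median of 14 bases after the start, where a site in overlapping windows of a gene counts once per window. They were 29 distinct sites, and in 19 of these, from 19 members, the ATG inside the letters was the annotated start codon, as in the YY1 windows printed above. ETS matches had a median position of -26 and NRF1 matches of -119. YY1 letters were in 1 of 5 higher, 6 of 13 lower and 18 of 51 uncalled members with a window, ETS letters were in 3, 3 and 24 of them, and NRF1 letters in 0, 2 and 12 of them. A match is a description of letters and says nothing of binding in these cells.

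Genes that work with the mitochondrial ribosome moved in both directions, and their counts are set against the 13.7% of all tested genes called higher and the 14.5% called lower. Of the 5 subunits without an MRP symbol DAP3, of the small subunit, was lower, at 104, 106 and 104 FPKM in IGF2BP1-NC and 90.3, 90.9 and 88.9 in IGF2BP1-KD (log2 fold change -0.23, SE 0.06, adjusted p = 0.0107). PTCD3 (0.07), CHCHD1 (-0.13), AURKAIP1 (-0.02) and GADD45GIP1 (-0.29) were not called, and without IGF2BP1-NC replicate 1 the list held 3 calls. Of 16 translation factors 0 were higher and 5 (31.2%) lower by edgeR. In fits to the same libraries, the higher count was 0 also at an unadjusted p under 0.05 and with DESeq2 and limma-voom. It was 1 at an unadjusted p with limma on FPKM. The lower ones were TUFM, the elongation factor that delivers tRNA (log2 fold change -0.43, SE 0.06, adjusted p = 0.00077), OXA1L, which inserts new proteins into the inner membrane (-0.34), LRPPRC, which stabilises mitochondrial mRNAs (-0.28), TACO1, an activator of cytochrome oxidase translation (-0.27), and PDF, a peptide deformylase (-0.65, SE 0.20). The list held 3 calls without IGF2BP1-NC replicate 2, IGF2BP1-KD replicate 1 or IGF2BP1-KD replicate 3.

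Of 26 tested assembly factors 2 (7.69%) were higher and 5 (19.2%) lower. RPUSD4, a pseudouridine synthase, rose from 12.7, 13.5 and 14.6 FPKM in IGF2BP1-NC to 26.4, 26.3 and 24.1 in IGF2BP1-KD (log2 fold change 0.90, SE 0.08, adjusted p = 4.8e-05). MTG1, a GTPase of large subunit assembly, fell from 7.40, 6.87 and 7.25 FPKM to 4.78, 4.83 and 5.26 (log2 fold change -0.54, SE 0.09, adjusted p = 0.0015). Without IGF2BP1-NC replicate 1 this list held 11 calls. Of 11 genes of mitochondrial DNA transcription and replication, POLG (log2 fold change 0.20), MGME1 (0.22) and TOP1MT (0.25) were higher (27.3% of the list) and POLRMT (-0.23) and TWNK (-0.28) lower (18.2%). Leaving out a library lowered these 5 calls to 1 without IGF2BP1-KD replicate 2, 2 without IGF2BP1-NC replicate 2 or IGF2BP1-KD replicate 1, and 3 without IGF2BP1-NC replicate 3 or IGF2BP1-KD replicate 3. The 13 proteins encoded by the mitochondrial genome were not analysed here.

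The cytosolic ribosome gave other counts. Of 84 tested cytosolic ribosomal protein genes 7 (8.33%) were higher and 0 lower by edgeR, with a median log2 fold change of 0.05 (0.045 before rounding). At an unadjusted p under 0.05 edgeR gave 11 higher and 6 lower, and at an adjusted p DESeq2 and limma-voom each gave 9 higher and 2 lower. Many of these genes have near-identical pseudogene copies, so their counts are uncertain. RPS27L had the largest rise of them (log2 fold change 0.44, SE 0.09, adjusted p = 0.0042). Their calls numbered 15 without IGF2BP1-NC replicate 1, 14 without IGF2BP1-NC replicate 2 and 2 without any 1 of the other libraries. Of 75 tested nuclear genes for oxidative phosphorylation subunits, 1 (1.33%) was higher and 17 (22.7%) lower, against 13.7% and 14.5% of all tested genes, with a median of -0.14. ATP5MC1, of the membrane ring of ATP synthase, fell (log2 fold change -0.72, SE 0.08, adjusted p = 0.00013), and NDUFC2, of complex I, rose (0.76, SE 0.15, adjusted p = 0.0043). Calls in this list numbered 42 without IGF2BP1-NC replicate 1, 9 without IGF2BP1-NC replicate 2, 12 without IGF2BP1-KD replicate 1 and 11 without IGF2BP1-KD replicate 3.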

How the data were processed

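RNA from 6 libraries (3 IGF2BP1-NC, 3 IGF2BP1-KD, grouped by the labels) was analysed. The deposited counts per gene are whole numbers that the authors obtained with HTSeq after trimming with Trimmomatic and mapping to GRCh38 with HISAT2. The deposited FPKM values were made by the authors with Cufflinks per the labels, and 27 gene symbols that had turned into dates in that table were matched by NCBI gene ID. Versions, strand setting and annotation release are not given in the sources used here.

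Counts were scaled by TMM and the 11994 genes kept by filterByExpr were tested with edgeR 4.0.16 (glmQLFit, robust, and glmQLFTest, two-sided) in R 4.3.3, with Benjamini-Hochberg adjustment over all of them and calls at an adjusted p under 0.05. The biological coefficient of variation was 9.55%. A count of 0 allows up to 3 counts (0.166 to 0.178 CPM), for counting error only. Alternatives used DESeq2 1.42.0, limma 3.58.1 (voom, and log2(FPKM + 1) with a mean of at least 1 FPKM, or a pseudocount of 0.1), other scalings and filters, the replicate number as a block, and each library left out. FPKM fold changes lie on the log2(FPKM + pseudocount) scale, which understates the change of low genes. Figures used Python 3.11.15, pandas 2.3.3 and matplotlib 3.10.9. Exons came from GENCODE release 44 and promoter windows from RefSeq.

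Named genes were IGF2BP1, up to 12 called members with the largest rise and 12 with the largest fall without overlap, the 3 members with the highest and the 3 with the lowest mean FPKM, MRPS30, MRPS18A, MRPS36, MRPL12, MRPL58, the 5 subunits without an MRP symbol, and called genes of the other lists (all when 5 or fewer, otherwise the largest rise and fall). The members and lists were chosen with earlier results of these data known.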

Additional observations from a re-analysis of the deposited data

How the results depend on the processing

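Over the settings that kept all libraries, 5 to 8 members were higher and 11 to 15 lower. In the 10 alternatives among them, the call of MRPL44 held in 7, with an adjusted p of up to 0.106. The calls of MRPL1 and MRPS10 held in 8, and those of MRPL18 and MRPS30 in 9. Calls of the other called members held in all 10. The higher count reached 8 with limma on log2(FPKM + 1) and 8 with a pseudocount of 0.1, and the cause was not tested. The 37 members without a shared exon base held 2 higher (5.41%) and 5 lower (13.5%). These shares were 6.49% and 18.2% among all tested members, and 13.7% and 14.5% among all tested genes. Log2 fold changes of the 37 ran from -0.334 to 0.288. MRPS27, MRPL19 and MRPL33, which had the largest changes, each share exon bases and are not among the 37. Leaving out 1 library gave 2 to 6 higher and 7 to 21 lower members, medians of -0.168 to -0.081 for the small subunit (lowest without IGF2BP1-NC replicate 1) and -0.084 to 0.004 for the large subunit, and 1144 to 1929 higher and 1146 to 2062 lower among all tested genes. Summed small subunit levels differed by -8.42% to -5.56%, and large ones by -4.65% to 0.588%. Calls in the other lists moved too: the mitochondrial DNA list held 3 in place of 5 with DESeq2, with no filter on low counts and with the replicate block, translation factors 3 in place of 5 with limma on FPKM without a filter, and cytosolic ribosomal protein genes, in place of 7, held 11 with library size only, DESeq2 or limma-voom, 4 with the replicate block and 2 with limma on FPKM without a filter. Replicate numbers did not pair the samples (same-number correlations of -0.080, 0.011 and -0.11). A fit with the replicate block gave 5 higher and 13 lower members, and 1413 higher and 1500 lower genes. No member row is a pseudogene, antisense or divergent gene, so leaving those out gave no values. With 3 libraries per group and 1 cell line, small changes near the threshold depend on single libraries.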
